A study of Mus musculus with 40 samples.

Results

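Of the 21203 genes tested in rib callus, 10 encode isoforms of 5 enzymes of glucose breakdown, and these were followed across 5 stages of rib repair at both ages. They were chosen by name: the hexokinase genes Hk1, Hk2 and Hk3, the phosphofructokinase genes Pfkm, Pfkl and Pfkp, the phosphoglucose isomerase gene Gpi1, the enolase gene Eno3, and the lactate dehydrogenase genes Ldha and Ldhb. All 10 were measured in every library, with at least 122 reads. Bulk RNAseq was made from frozen, powdered pieces holding rib bone, bone marrow and intercostal muscle of wild type mice, which per the paper were female. Immature mice were 7 weeks old and mature mice over 10 months, and both were sampled at baseline and then on days 0, 2, 5 and 14 after rib resection (0dpr to 14dpr). The 39 libraries analysed gave n = 4 in each group, apart from mature mice at 5dpr (n = 3), where replicate 2 was not analysed here. The labels word all tissue as taken after resection, whereas the paper places baseline before it.

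Glycolysis turns glucose into pyruvate, and lactate dehydrogenase converts pyruvate to lactate and back. Several of its steps have isoforms from separate genes. Skeletal muscle fibres are known for Pfkm and Eno3, whereas leukocytes carry Hk3, and Pfkl and Pfkp are found in many other tissues. Hexokinase traps glucose in the cell, and phosphofructokinase is the main control point of the pathway. The question addressed here was whether muscle isoforms and the ubiquitous or leukocyte isoforms changed alike during repair.

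Promoter windows of 4 members are shown as examples of a muscle isoform (Eno3), a leukocyte isoform (Hk3) and members that fell less than the muscle list at 2dpr (Ldha and Hk2). Each window is the 250 bases before the RefSeq transcription start, written 5′ to 3′ on the gene's strand, and in GRCm38.p6 they lie at chr11:70656926-70657175 (plus strand, Eno3), chr13:55021386-55021635 (minus strand, Hk3), chr7:46845554-46845803 (plus strand, the first of 2 Ldha starts) and chr6:82774455-82774704 (minus strand, Hk2). Capitals mark matches on either strand to ACGTG, the core of the hypoxia response element, or to GAGGAA, a core bound by the myeloid factor PU.1.
Eno3: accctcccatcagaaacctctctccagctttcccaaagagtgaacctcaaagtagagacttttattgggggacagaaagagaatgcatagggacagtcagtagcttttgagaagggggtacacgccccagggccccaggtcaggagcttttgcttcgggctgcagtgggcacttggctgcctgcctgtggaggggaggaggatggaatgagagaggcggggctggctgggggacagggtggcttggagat
Hk3: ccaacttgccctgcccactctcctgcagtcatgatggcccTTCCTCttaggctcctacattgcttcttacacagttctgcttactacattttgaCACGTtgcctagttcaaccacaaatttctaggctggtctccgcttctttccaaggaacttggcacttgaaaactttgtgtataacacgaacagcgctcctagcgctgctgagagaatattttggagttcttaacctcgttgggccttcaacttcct
Ldha: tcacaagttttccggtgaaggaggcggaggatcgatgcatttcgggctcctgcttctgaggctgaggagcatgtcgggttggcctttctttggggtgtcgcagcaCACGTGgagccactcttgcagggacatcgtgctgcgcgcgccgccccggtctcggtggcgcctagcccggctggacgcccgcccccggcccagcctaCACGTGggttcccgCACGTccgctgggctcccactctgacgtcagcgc
Hk2: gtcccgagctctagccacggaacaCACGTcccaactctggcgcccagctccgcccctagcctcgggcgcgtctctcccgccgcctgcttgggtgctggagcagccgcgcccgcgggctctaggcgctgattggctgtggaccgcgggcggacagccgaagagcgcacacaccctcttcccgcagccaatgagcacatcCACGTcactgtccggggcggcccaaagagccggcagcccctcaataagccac
ACGTG was found at 3 places in the Ldha window, where 2 of them read CACGTG and so match on both strands, at 2 places in the Hk2 window and at 1 in the Hk3 window, and 16.6% of the 32851 RefSeq windows held it. GAGGAA was found once in the Hk3 window, against 23.3% of all windows. None of the 4 windows shown held CAGCTG, an E-box of myogenic factors (13% of all windows), or TATAAA (12.4%). No match to any of the 4 motifs was found in the Eno3, Ldhb, Pfkl and Pfkp windows. Among windows not shown, GAGGAA was found before each of the 4 starts of Pfkm, the other muscle isoform, some of whose windows overlap. It was also found before 1 of 2 Hk1 starts, so it did not set Hk3 apart from the muscle isoforms. Some Pfkm windows held ACGTG, and the Gpi1 window held CAGCTG once. These matches describe letters in a short window and do not show that a factor was bound.

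The reads carried strong muscle signal at all stages. All 20 genes of a skeletal muscle list were above 1 CPM (reads of a gene scaled to library size) in every library. Over both ages, the list's average on the log2 scale lay between 10.5 and 11.8 at baseline and between 11.6 and 12.8 at 0dpr. It lay between 8.67 and 9.71 at 2dpr, 9.36 and 10.6 at 5dpr, and 9.06 and 10.3 at 14dpr. The libraries held 6057708 to 21536887 counts each (median 9087312). In whole tissue, fewer cells of a type and less RNA per cell cannot be told apart.

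Compared per length of exon, Eno3 was the most abundant of the members at 0dpr. Eno3 stood at 1813 ± 513 CPM per kb (SD, n = 4) in immature mice, followed by Pfkm at 551 ± 113, Ldha at 511 ± 137 and Ldhb at 156 ± 43.6, and Pfkp was lowest at 3.8 ± 0.478. Pfkm and Ldha did not differ beyond their spread there. In mature mice at 0dpr the first 4 were in the same order, with Eno3 at 1877 ± 482 CPM per kb. At 2dpr in immature mice Ldha (291 ± 22.9) and Eno3 (275 ± 44.5) were within each other's spread, as were Pfkm (77.8 ± 15.2) and Gpi1 (74.3 ± 4.9). At 2dpr in mature mice Ldha was first at 295 ± 21.4 CPM per kb, Eno3 at 193 ± 57, Gpi1 at 75 ± 11 and Pfkm at 61.7 ± 22.4. Gpi1 and Pfkm were again within each other's spread.

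From 0 to 2dpr, Pfkm fell while Pfkl and Pfkp rose, and Hk2 fell while Hk3 rose, whereas both lactate dehydrogenase genes fell. These changes start from 0dpr, and 2dpr was not tested against baseline. In immature mice, 9 of 10 members passed the test (edgeR's quasi-likelihood test, Benjamini-Hochberg adjusted p under 0.05), 4 rising and 5 falling, where 44% of all genes passed (21.8% higher, 22.2% lower). In mature mice 8 of 10 passed, 3 rising and 5 falling, against 47.6% of all genes (22.7% and 24.9%). The median log2 fold change of the members was -0.51 in immature and -0.43 in mature mice, against -0.04 and -0.05 over all genes. Hk3, Pfkl and Pfkp rose at both ages, and Hk2, Pfkm, Eno3, Ldha and Ldhb fell at both.

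**Figure D1:**
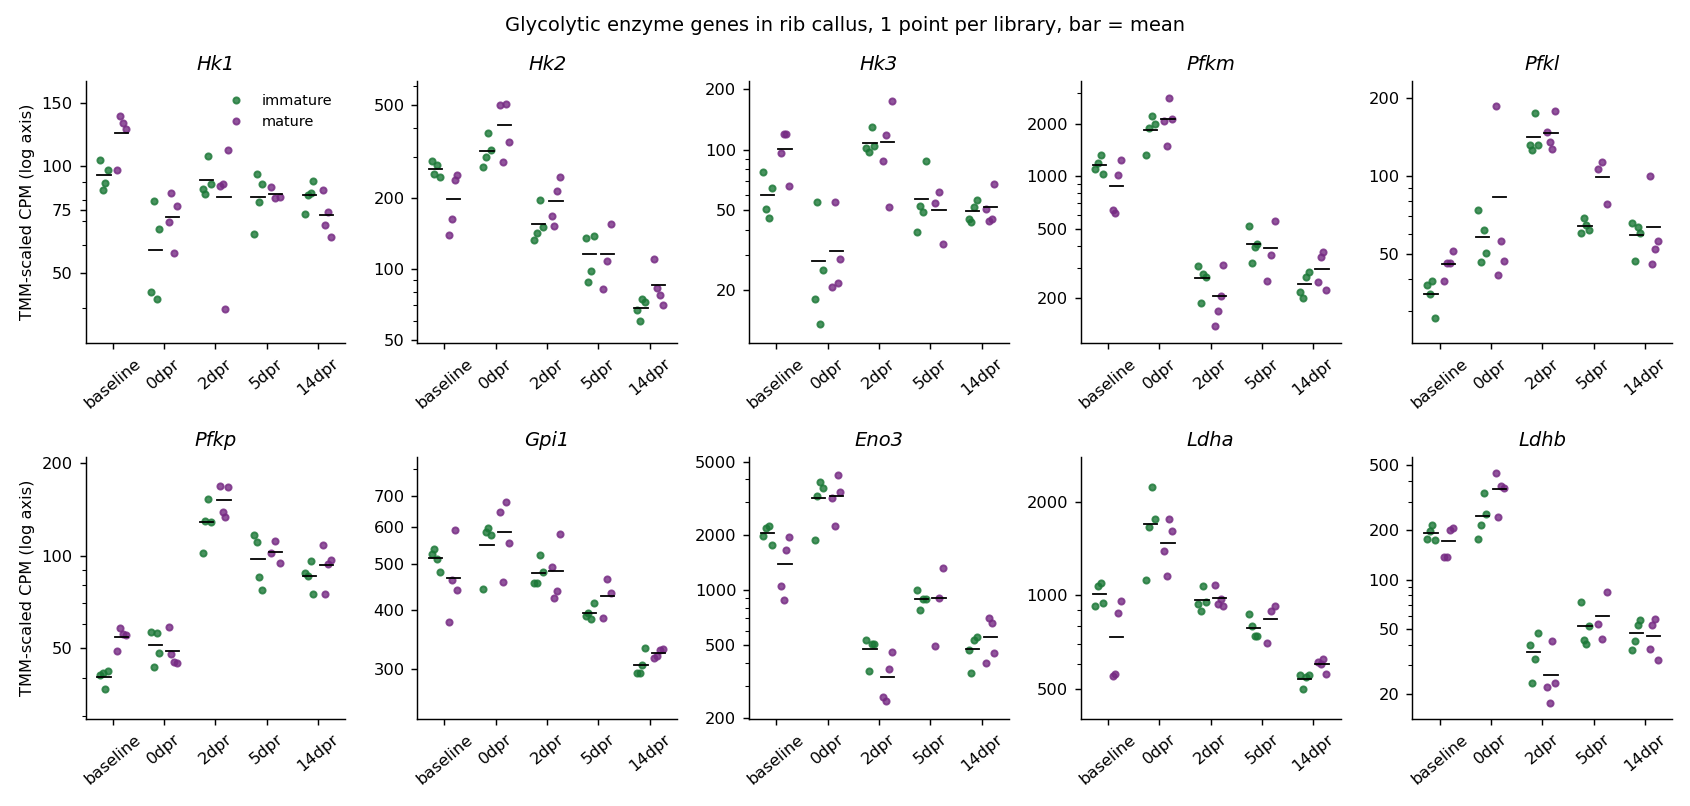
TMM-scaled CPM on a log axis for each of the 10 genes, by stage on the x axis, with 1 point per library (green immature, purple mature) and a bar at the group mean. Pfkm, Eno3 and Ldhb peaked at 0dpr and were lowest at 2dpr or 14dpr, whereas Pfkp was highest at 2dpr, between 102 and 168 CPM.

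The phosphofructokinase genes are described first. Pfkm, the muscle isoform (chr15:98092589-98132451, GRCm38), read 1313, 1881, 2198 and 1975 CPM at 0dpr and 308, 189, 277 and 266 CPM at 2dpr in immature mice. Mature mice had 2055, 1485, 2799 and 2112 CPM at 0dpr and 139, 170, 205 and 311 CPM at 2dpr. Every 2dpr library lay below every 0dpr library at both ages. The log2 fold change of Pfkm was -2.82 ± 0.27 (standard error; adjusted p = 1.2e-10) in immature and -3.36 ± 0.27 (adjusted p = 2.45e-12) in mature mice.

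Pfkp, the platelet-type isoform found in many tissues (chr13:6579768-6648777), moved the other way. Its values in immature mice were 56.5, 43.3, 56 and 48.1 CPM at 0dpr and 102, 130, 153 and 129 CPM at 2dpr. Its values in mature mice were 58.5, 47.7, 45.1 and 44.7 CPM at 0dpr and 168, 139, 133 and 168 CPM at 2dpr. The groups did not overlap at either age. Its log2 fold change was 1.33 ± 0.14 (adjusted p = 6.72e-10) in immature and 1.64 ± 0.14 (adjusted p = 4.96e-12) in mature mice.

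Pfkl, the liver-type isoform (chr10:77986947-78010083), rose from 58.2 ± 12.2 to 142 ± 22.6 CPM in the immature libraries (log2 fold change 1.29 ± 0.29, adjusted p = 0.000387). In mature mice, it read 187, 41.4, 56.1 and 46.8 CPM at 0dpr and 148, 136, 127 and 178 CPM at 2dpr. Replicate 1 at 0dpr was above all 2dpr libraries, so that the groups overlapped. The log2 fold change there was 0.84 ± 0.28 (adjusted p = 0.0144). That call was lost without mature 0dpr replicate 2, 3 or 4 (log2 fold changes 0.65, 0.66 and 0.67, adjusted p = 0.059, 0.0805 and 0.0568), whereas no call was lost when replicate 1 was left out.

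As a share of the 3 phosphofructokinase genes per length, Pfkm fell from 97.7% ± 0.936 at 0dpr to 71.3% ± 4.74 at 2dpr in immature mice, and from 97.5% ± 1.67 to 63.8% ± 7.06 in mature mice. The ratio of Pfkm to the sum of Pfkl and Pfkp was 51.1 at 0dpr and 2.46 at 2dpr by the medians of immature mice, and 53.3 and 1.89 in mature mice. On the log2 scale it fell by 4.13 and 4.63 (exact two-sided permutation p = 0.0286 each, the smallest that 4 against 4 libraries can give, and 0.0305 after adjustment over 16 ratio tests). No libraries overlapped. Per length, Pfkm remained the largest share of the family in every group, 54.5% in the lowest library. That order depends on exon length, which was 3340 bases for Pfkm, 6675 for Pfkl and 13401 for Pfkp. Without division by length, the 3 genes overlapped in mature mice at 2dpr. Pfkm was at 138.5 to 311 CPM there, Pfkl at 127 to 178 and Pfkp at 133 to 168.

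**Figure D2:**
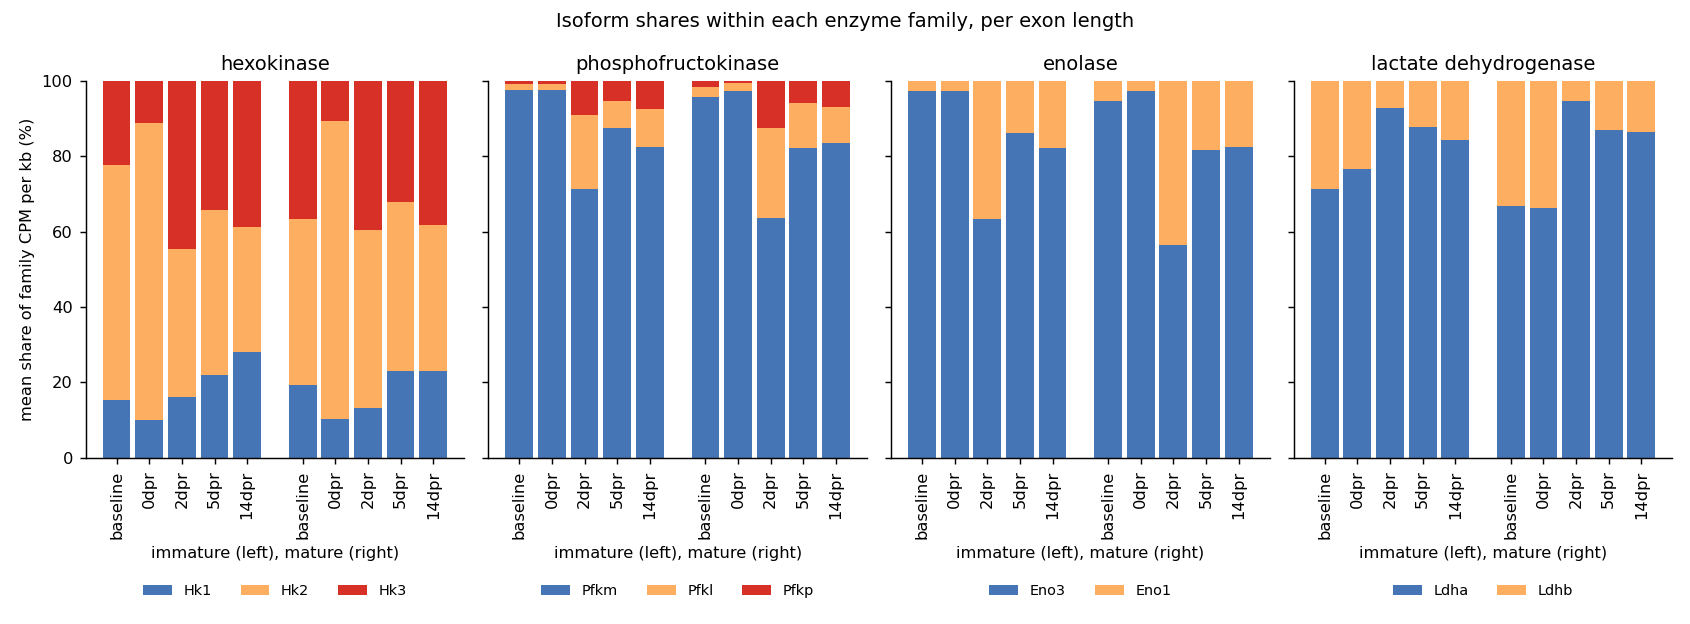
Mean share, in percent of CPM per kb of exon, of each isoform within its enzyme family, by stage for immature (left bars) and mature mice (right bars). Pfkm and Eno3 made up over 94% of their families at baseline and 0dpr and less at 2dpr, when the Hk3, Pfkl, Pfkp and Eno1 shares were higher.

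Eno3, the muscle enolase (chr11:70657202-70662513), was 1865, 3269, 3870 and 3605 CPM at 0dpr and 532, 363, 506 and 510 CPM at 2dpr in immature mice. Mature mice had 3151, 2221, 4255 and 3431 CPM at 0dpr and 262, 248, 372 and 458 CPM at 2dpr. The stages did not overlap at either age. Its log2 fold change was -2.72 ± 0.28 (adjusted p = 9.37e-10) in immature and -3.28 ± 0.29 (adjusted p = 1.55e-11) in mature mice.

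Eno1, the ubiquitous enolase and not one of the 10 members, rose over the same step by a log2 fold change of 1.84 ± 0.20 (adjusted p = 2e-09) and 1.62 ± 0.20 (adjusted p = 1.68e-08). Near-identical copies of Eno1 and of Ldha exist in the mouse genome, so that their counts are less certain. The ratio of Eno3 to Eno1 per length fell from a median of 48.6 to 1.74 in immature and from 46.4 to 1.29 in mature mice. The log2 ratio fell by 4.54 and 5.01 (exact permutation p = 0.0286 each, adjusted p = 0.0305). In mature mice at 2dpr, 2 libraries had more Eno1 than Eno3 per length (ratios of 0.968 and 0.945), and the mean share of Eno3 was 56.3% ± 8.79. This order depends on exon length, which was 1739 bases for Eno3 and 5379 for Eno1. Without division by length, Eno1 was above Eno3 in every 2dpr library. Eno1 was at 760 to 1053 CPM against 363 to 532 in immature mice, and 714 to 838 against 248 to 458 in mature mice.

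Both lactate dehydrogenase genes fell, but to different extents. Ldhb, the heart-type subunit (chr6:142490249-142507957), went from 177, 215, 337 and 252 CPM at 0dpr to 40, 23.3, 32.9 and 47.4 CPM at 2dpr in immature mice. Mature mice went from 451, 243, 375 and 366 CPM to 22.1, 17.6, 42 and 23.5 CPM. No libraries overlapped, and the log2 fold changes were -2.77 ± 0.27 (adjusted p = 2.72e-10) and -3.78 ± 0.28 (adjusted p = 3.81e-13).

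Ldha, the subunit that prevails in tissues making lactate (chr7:46841475-46855627), fell from 1691 ± 454 to 963 ± 75.9 CPM in immature mice and from 1478 ± 261 to 978 ± 70.7 CPM in mature mice. On the log2 scale this was -0.81 ± 0.17 (adjusted p = 0.000128), and the mature value was -0.60 ± 0.17 (adjusted p = 0.00309). Its baseline level was 1008 ± 85 CPM in immature and 735 ± 212 CPM in mature mice. The 2dpr mean was thus within the baseline spread in immature mice and above the baseline mean in mature mice. With total counts as the only scaling, under which the median gene shifted by 0.25 and 0.27 at this step, the mature value was -0.31 (adjusted p = 0.0609). The ratio of Ldha to Ldhb therefore rose, by 2.01 on the log2 scale in immature and 3.23 in mature mice (exact permutation p = 0.0286 each, adjusted p = 0.0305). The Ldha share went from 76.5% ± 1.47 to 92.7% ± 1.94 and from 66.3% ± 4.69 to 94.7% ± 2.08.

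**Figure D3:**
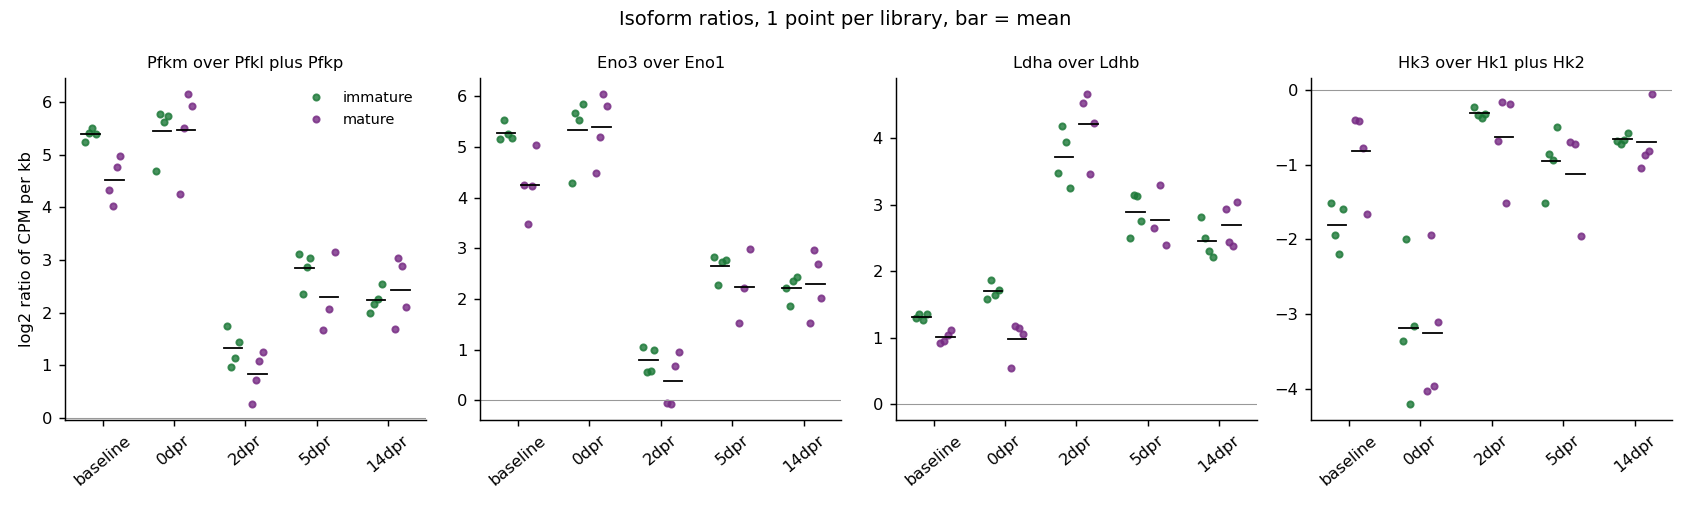
Log2 ratio of CPM per kb for 4 pairs of isoforms (y axis) by stage (x axis), with 1 point per library (green immature, purple mature) and a bar at the mean. The Pfkm and Eno3 ratios were lowest and the Ldha over Ldhb ratio highest at 2dpr, when no library overlapped with 0dpr at the same age.

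Among the hexokinases, Hk3, the leukocyte isoform (chr13:55005985-55021385), read 18.2, 54.9, 13.7 and 25.3 CPM at 0dpr and 102, 97.9, 129 and 105 CPM at 2dpr in immature mice. In mature mice it read 20.7, 55.3, 21.7 and 28.8 CPM at 0dpr and 88.2, 119, 52.3 and 176 CPM at 2dpr. Replicate 2 was the highest 0dpr library at both ages, and in mature mice it lay above replicate 3 of 2dpr. The log2 fold changes were 1.96 ± 0.35 (adjusted p = 1.99e-05) and 1.79 ± 0.35 (adjusted p = 5.49e-05).

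Hk2, the insulin-responsive isoform of muscle and fat (chr6:82725025-82774454), fell from 318 ± 45.5 to 156 ± 28.4 CPM and from 410 ± 111 to 196 ± 43.6 CPM, or by -1.03 ± 0.21 on the log2 scale (adjusted p = 0.000107), with a mature value of -1.07 ± 0.21 (adjusted p = 5.97e-05). Hk1, the hexokinase of most tissues (chr10:62268855-62379908), rose at the immature age by a log2 fold change of 0.66 ± 0.20 (adjusted p = 0.00722), a call lost without immature 0dpr replicate 3 (0.50, adjusted p = 0.0516). In mature mice it did not pass (0.19 ± 0.20, adjusted p = 0.442), but did without mature 2dpr replicate 3, whose Hk1 was 39.7 CPM (0.42, adjusted p = 0.0369). Hk3 thus rose from 11% ± 6.37 to 44.6% ± 1.07 of hexokinase CPM per kb in immature mice and from 10.7% ± 6.95 to 39.6% ± 9.98 in mature mice. The log2 ratio of Hk3 to the sum of the other two rose by 2.87 and 2.62 (exact permutation p = 0.0286 each, adjusted p = 0.0305). At baseline the Hk3 share was 22.4% ± 3.7 in immature and 36.7% ± 8.86 in mature mice. In mature mice, Hk3 was at 101 ± 25.2 CPM at baseline and 109 ± 52.5 at 2dpr, and Hk2 at 198 ± 54.7 and 196 ± 43.6. Both were thus within the baseline spread there at 2dpr.

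Gpi1, the single isomerase between hexokinase and phosphofructokinase (chr7:34201330-34230336), was 551 ± 72.2 and 479.5 ± 31.6 CPM at 0 and 2dpr in immature mice and 585 ± 98.6 and 484 ± 71.2 CPM in mature mice. Neither the immature value of -0.20 ± 0.13 (adjusted p = 0.196) nor the mature value of -0.27 ± 0.13 (adjusted p = 0.0705) passed. The mature value passed without mature 0dpr replicate 2 (-0.35, adjusted p = 0.023) or 2dpr replicate 4 (-0.37, adjusted p = 0.0178), and by DESeq2 it passed at both ages (-0.29, adjusted p = 0.0381, and -0.36, adjusted p = 0.00819). With total counts as the only scaling, its sign turned at both ages (0.06, adjusted p = 0.707, and 0.02, adjusted p = 0.92). Exons of Hk1, Hk3, Pfkm, Pfkp and Gpi1 share 157, 34, 359, 748 and 741 bases with other genes. The library kit is stranded, but the strand setting used in counting is not given in the sources used here, so that reads in those bases are uncertain.

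The fall of the muscle isoforms had the size of the fall of the muscle list. The list's average changed by -2.76 in immature and -3.28 in mature mice, beside the Pfkm and Eno3 fold changes of -2.82 and -2.72, and -3.36 and -3.28. Ldhb fell by about as much in immature mice and more in mature mice, whereas Hk2 and Ldha fell less at both ages. A list of 10 monocyte and macrophage genes rose by 2.66 and 2.75 over the same step, and a list of 10 neutrophil genes changed by -0.004 and -0.30 with overlapping libraries. The summed CPM of the macrophage list was 1183 to 2449.8 at 0dpr and 7873 to 9511 at 2dpr over both ages, that of the neutrophil list 897 to 7818 and 887 to 5443, and no marker of these 3 lists was at 0 in any library. A list of 5 adipocyte genes changed by -1.79 and -2.10 without overlap, its summed CPM going from 1262 to 2262 at 0dpr to 525 to 798 at 2dpr over both ages, and its part in the fall of Hk2 was not tested. The B cell list changed by -2.04 and -3.46, and in mature mice the erythroid list by -3.28 and the osteoblast list by -1.74, all without overlap.

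With the muscle score of each library as a covariate, 1 member passed in immature mice and 2 in mature mice. The share of all genes passing in that fit is not given here, so the drop cannot be read as particular to the members. Pfkp still rose at both ages (1.17, adjusted p = 0.00828, and 1.44, adjusted p = 0.00533), and Ldhb still fell in mature mice (-1.66, adjusted p = 0.0383). Eno3 in immature mice went from -2.72 to 0.04 (adjusted p = 0.946). The score of every 2dpr library lay below that of every 0dpr library, so that this fit compares stages at muscle levels that no library of both stages shared.

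**Figure D4:**
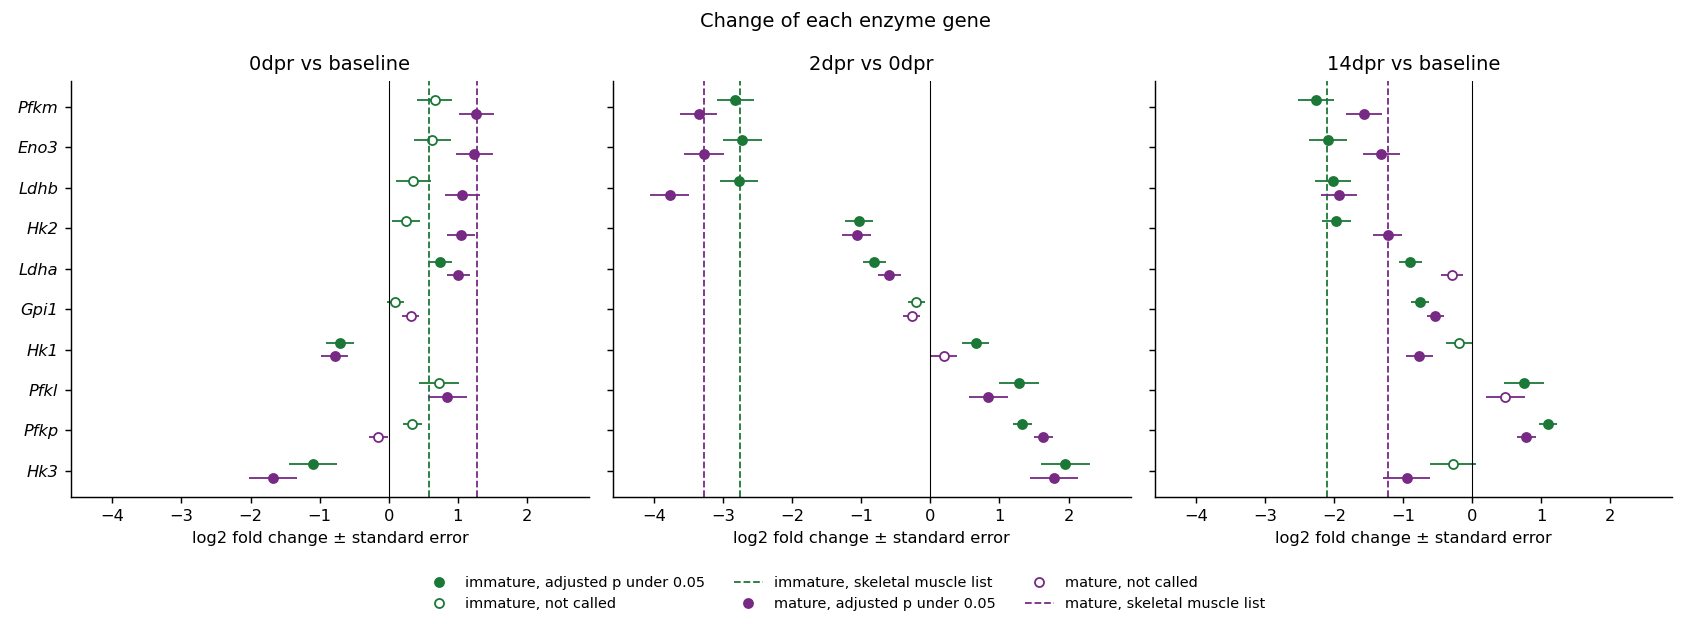
Log2 fold change with its standard error (x axis) of each gene (y axis) in 3 comparisons, for immature (green) and mature mice (purple). Filled points passed an adjusted p of 0.05, and dashed lines give the change in mean log2 CPM of the skeletal muscle list. Pfkm and Eno3 lay near the dashed line of their age in the 3 panels, and Pfkp and Pfkl were on the other side of 0 from it at 2dpr and 14dpr.

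Across all 39 libraries, log2 CPM of Pfkm and of Eno3 followed the muscle score with Pearson's r of 0.993 and 0.99, Ldhb with 0.959, Hk2 with 0.768, Ldha with 0.684 and Gpi1 with 0.636. Pfkp ran against it at -0.866, Pfkl at -0.525 and Hk3 at -0.574, and Hk1 was at -0.159. With the average of the monocyte and macrophage list, r was -0.963 for Ldhb, -0.948 for Pfkm, -0.922 for Eno3 and 0.923 for Pfkp. It was -0.719 for Hk2, -0.568 for Ldha, -0.538 for Gpi1, 0.6 for Pfkl, 0.554 for Hk3 and 0.124 for Hk1. These correlations thus do not tie a gene to muscle alone, and the part of either list was not tested. These describe 10 groups that differ in stage and age, and not independent points. The muscle scores of the 2dpr libraries (8.67 to 9.71) and the 14dpr libraries (9.06 to 10.3) overlapped, but log2 CPM of Hk2 did not, at 7.05 to 7.96 and 5.92 to 6.79. This was not particular to Hk2. CPM of Ldha, Gpi1 and Pfkl was likewise higher in every 2dpr library than in every 14dpr library over both ages. The share of all genes that separated in this way is not given here, so no cause can be read from it.

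**Figure D5:**
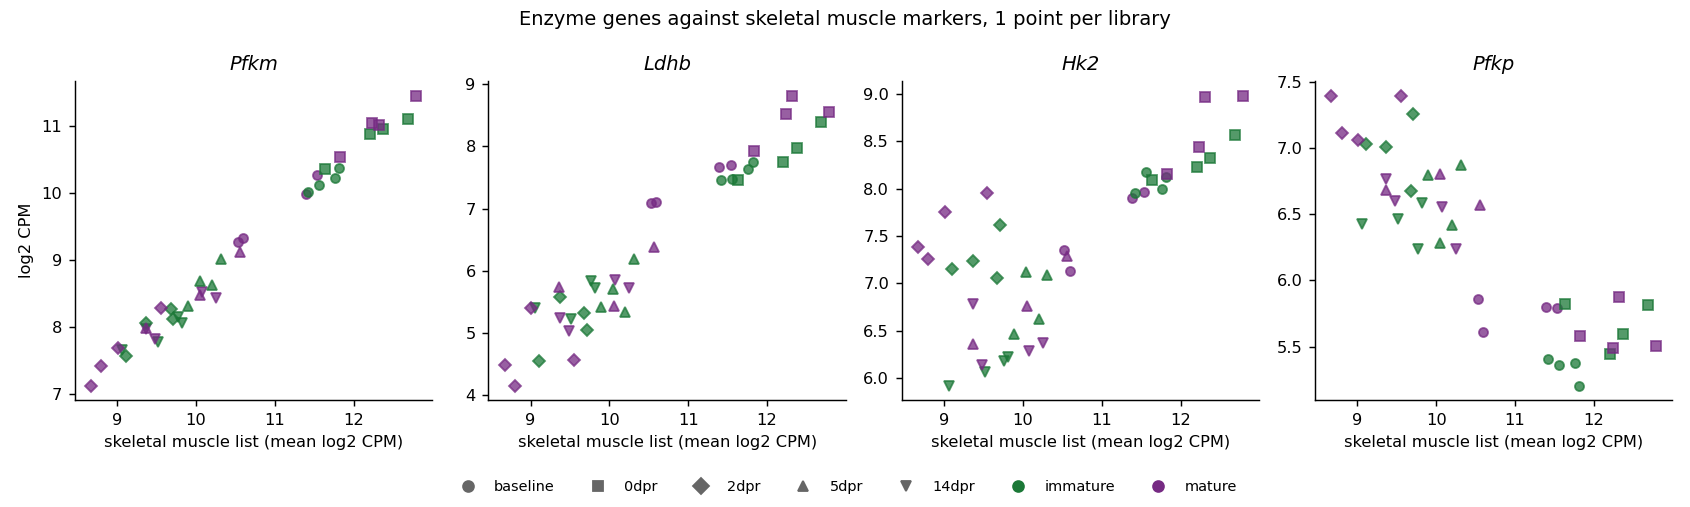
Log2 CPM of Pfkm, Ldhb, Hk2 and Pfkp (y axis) against the muscle score, the average log2 CPM of the 20 muscle list genes (x axis), with 1 point per library, colour for age and symbol for stage. Pfkm lay along a line (r = 0.993), Ldhb nearly so (r = 0.959), Hk2 was scattered at low muscle scores (r = 0.768) and Pfkp sloped down (r = -0.866).

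The genes most like each member were taken by the highest Pearson's r of log2 CPM over the 39 libraries, among genes with a mean of at least 1 CPM that were on no list used here. Among those closest to Pfkm were Pygm, the glycogen phosphorylase of muscle (r = 0.992), and Myom1 (0.99). Closest to Eno3 were Tpm2 (0.989), Hrc (0.988) and Tmem38a (0.987), and closest to Ldhb was Ckmt2, the mitochondrial creatine kinase of muscle (0.985). Closest to Hk3 were Card9 (0.964), Coro1a (0.957) and Il17ra (0.949), genes known from leukocytes, and closest to Pfkp were Cyfip1 (0.964), Cndp2 (0.96) and Il4ra (0.96). Those of Pfkl and Hk1 were less close, with Hsd17b12 at 0.882 and Sirt7 at 0.878, and for Ldha it was Pmpca (0.951). Closest to Hk2 was Lrrc2 (0.956), and closest to Gpi1 was Ehbp1l1 (0.899).

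Before that step, from baseline to 0dpr, the muscle isoforms and both lactate dehydrogenase genes were higher in mature mice. In mature mice 8 of 10 members passed, 6 rising (Hk2, Pfkm, Pfkl, Eno3, Ldha and Ldhb) and 2 falling (Hk1 and Hk3), against 22.5% of all genes (11.9% higher, 10.6% lower). In immature mice 3 of 10 passed (Ldha rising, Hk1 and Hk3 falling), against 10.6% of all genes (5.98% and 4.66%). The 0dpr libraries are shared with the comparison above, so that the 2 steps are not independent.

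Ldha read 925, 1069, 1092 and 944 CPM at baseline and 1123, 1657, 2230 and 1753 CPM at 0dpr in immature mice, with no overlap. Its log2 fold change was 0.75 ± 0.17 (adjusted p = 0.00466) in immature and 1.01 ± 0.17 (adjusted p = 7.72e-05) in mature mice. Pfkm rose by 1.27 ± 0.25 (adjusted p = 0.000478) in mature mice and was at 0.67 ± 0.25 (adjusted p = 0.0795) in immature mice, while the muscle list moved by 1.28 and 0.59. With the muscle score as a covariate no member passed in mature mice, where the scores of the 2 stages did not overlap, and Ldha passed in immature mice (0.47, adjusted p = 0.0379). With total counts as the only scaling, the median gene shifted by -0.19 and -0.31 at this step, and in mature mice Pfkp passed (-0.46, adjusted p = 0.0115).

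Hk3 fell at 0dpr, from 59.9 ± 14.5 to 28 ± 18.5 CPM in immature mice (log2 fold change -1.10 ± 0.34, adjusted p = 0.0356) and from 101 ± 25.2 to 31.6 ± 16.2 CPM in mature mice (-1.67 ± 0.35, adjusted p = 0.000694). The neutrophil list fell by 1.76 and 1.68 over this step, without overlap, and the monocyte and macrophage list by 0.26 and 0.77. Their part in the Hk3 value was not tested.

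Hk1 fell by 0.70 and 0.78 on the log2 scale (adjusted p = 0.0217 and 0.00406). Gpi1 passed in mature mice without baseline replicate 3 or 0dpr replicate 2 (0.45, adjusted p = 0.0112, and 0.37, adjusted p = 0.0278). In immature mice these calls were fragile. Without immature baseline replicate 2 or 6 or immature 0dpr replicate 1 or 3, Hk1 stood between -0.54 and -0.68 (adjusted p from 0.0561 to 0.143), and Hk3, lost also without 0dpr replicate 4, between -0.83 and -1.06 (adjusted p from 0.0732 to 0.189). In mature mice the rise of Pfkl rested on 1 library: 0.85 ± 0.29 (adjusted p = 0.0292) with mature 0dpr replicate 1, and 0.10 (adjusted p = 0.79) without it. It was also lost without mature baseline replicate 1, 2 or 3 (0.79, 0.86 and 0.86, adjusted p from 0.0557 to 0.0853).

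From 2 to 5dpr, part of the contrast was reversed. The 2dpr libraries also served as the later group of the 0 to 2dpr step, so that the 2 steps are not independent. In mature mice 6 of 10 members passed, against 14.5% of all genes (8.16% higher, 6.38% lower), with Eno3 (1.44 ± 0.29, adjusted p = 0.000567), Ldhb (1.2 ± 0.28, adjusted p = 0.00273) and Pfkm (0.91 ± 0.27, adjusted p = 0.0187) rising, and Pfkp (-0.56 ± 0.14, adjusted p = 0.00685), Hk2 and Hk3 falling. Without mature 5dpr replicate 4, which had the highest Eno3, Pfkm and Ldhb of its group, 2 members passed. In a fit of only the libraries compared 0 passed. The shares of all genes passing in these fits are not given here. The calls lost without mature 5dpr replicate 4 were those of Pfkm, Ldhb, Pfkp and Hk3. The Pfkm call was also lost without mature 2dpr replicate 1 or 2 (0.76 and 0.83). That of Hk3 was also lost without 2dpr replicate 2 or 4 or 5dpr replicate 1 (-1.08, -0.79 and -1.19). Hk2 still passed without 5dpr replicate 4, but not without 2dpr replicate 4 or 5dpr replicate 1 or 3 (-0.63, -0.57 and -0.72). In immature mice 2 passed, against 8.04% of all genes (4.37% and 3.67%): Pfkl fell from 142 ± 22.6 to 64 ± 3.94 CPM (-1.15 ± 0.29, adjusted p = 0.00816) and Eno3 rose from 478 ± 77.4 to 890 ± 91.7 CPM (0.90 ± 0.27, adjusted p = 0.0307). The Eno3 call was lost when any of 6 of the 8 libraries was left out (immature 2dpr replicate 2, 3 or 4, or 5dpr replicate 2, 4 or 5), with values from 0.79 to 0.93 and adjusted p from 0.0539 to 0.119. Pfkp passed without immature 2dpr replicate 1 or 5dpr replicate 2 or 3 (-0.49, -0.50 and -0.47), and Hk3 without 5dpr replicate 5 (-1.21). The share of Pfkm was back to 87.6% ± 2.74 in immature and 82.2% ± 6.97 in mature mice at 5dpr. The muscle list rose by 0.65 and 0.98 over this step.

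From 5 to 14dpr, 1 of 10 members passed in immature mice, against 3.18% of all genes (1.45% lower), and 0 in mature mice, against 4.18%. Hk2 fell from 115 ± 25.9 to 68.5 ± 6.32 CPM in immature mice (-0.75 ± 0.21, adjusted p = 0.0374), and this call was lost without any 1 of the 14dpr libraries or without 5dpr replicate 2 or 5 (-0.65 to -0.79, adjusted p from 0.0636 to 0.151). In mature mice, 4 members had an unadjusted p under 0.05 by edgeR, as had 3905 of all genes tested, and DESeq2 called 0 members.

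At 14dpr the callus had not returned to its baseline make-up of isoforms. In immature mice 8 of 10 members passed against baseline, 2 rising (Pfkl and Pfkp) and 6 falling (Hk2, Pfkm, Gpi1, Eno3, Ldha and Ldhb), where 31.4% of all genes passed (16.4% higher, 15.1% lower). In mature mice 8 passed, 1 rising (Pfkp) and 7 falling (Hk1, Hk2, Hk3, Pfkm, Gpi1, Eno3 and Ldhb), against 33.5% of all genes (17.1% and 16.4%). The median member changed by -0.83 and -0.86, against -0.04 and -0.03 over all genes.

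Pfkm read 1103, 1192, 1316 and 1029 CPM at baseline and 218, 201, 265 and 284 CPM at 14dpr in immature mice. In mature mice it read 641, 615, 1013 and 1232 CPM at baseline and 248, 344, 366 and 225 CPM at 14dpr. No libraries overlapped, and the log2 fold changes were -2.26 ± 0.26 (adjusted p = 2.06e-08) and -1.56 ± 0.26 (adjusted p = 8.36e-06). Eno3 changed by -2.09 ± 0.28 (adjusted p = 2.55e-07) and -1.31 ± 0.27 (adjusted p = 0.000203), while the muscle list moved by -2.10 and -1.22.

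Ldhb was lower by 2.02 and 1.93 on the log2 scale (-2.02 ± 0.26, adjusted p = 2.18e-07, and -1.93 ± 0.26, adjusted p = 4.34e-07). Hk2 fell from 268 ± 19.6 to 68.5 ± 6.32 CPM in immature mice (-1.97 ± 0.21, adjusted p = 6.43e-09) and from 198 ± 54.7 to 85.2 ± 17.5 CPM in mature mice (-1.22 ± 0.21, adjusted p = 1.86e-05). Gpi1, which has no partner isoform, fell from 515 ± 24.7 to 306 ± 18 CPM and from 469 ± 90 to 324 ± 6.74 CPM (-0.75 ± 0.13, adjusted p = 1.25e-05, and -0.53 ± 0.13, adjusted p = 0.000947). Pfkp rose from 40.2 ± 2.44 to 86.1 ± 8.58 CPM and from 54.4 ± 3.97 to 93.6 ± 13.8 CPM (1.10 ± 0.14, adjusted p = 8.19e-08, and 0.78 ± 0.13, adjusted p = 1.89e-05). With the muscle score as a covariate, Pfkp still rose at both ages (0.97, adjusted p = 0.00622, and 0.71, adjusted p = 0.00269), and 2 members passed in immature and 5 in mature mice. Here too, the muscle scores of the 2 stages did not overlap at either age.

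The Pfkl call in immature mice (0.75 ± 0.29, adjusted p = 0.0446) was lost without immature baseline replicate 2, 3 or 6 or immature 14dpr replicate 1, 3 or 4 (0.66 to 0.79, adjusted p from 0.0622 to 0.125). The Hk3 call in mature mice (-0.95 ± 0.34, adjusted p = 0.0266) was lost without mature baseline replicate 2 or 3 or mature 14dpr replicate 1, 2 or 3 (-0.86 to -0.94, adjusted p from 0.0575 to 0.072).

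The ratios told the same at the level of isoform pairs, with 1 exception. At 14dpr against baseline, the log2 ratio of Pfkm to Pfkl plus Pfkp was lower by 3.15 in immature and 2.10 in mature mice (-3.15 and -2.10), that of Eno3 to Eno1 by 3.06 and 1.95 (-3.06 and -1.95), and that of Ldha to Ldhb was higher by 1.13 and 1.69 (exact permutation p = 0.0286 and adjusted p = 0.0305 for each). The ratio of Hk3 to Hk1 plus Hk2 was higher by 1.15 in immature mice (exact permutation p = 0.0286, adjusted p = 0.0305), and by 0.12 with overlapping libraries in mature mice (exact permutation p = 0.771, adjusted p = 0.771). In immature mice that rise came with Hk2: against Hk1 alone, Hk3 changed by -0.06 (exact permutation p = 0.657).

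Between immature and mature mice, 0 of 10 members passed edgeR's test at each of the 5 stages, where 0.585%, 0.726%, 0.627%, 0% and 0.00943% of all genes passed from baseline to 14dpr. An unadjusted p under 0.05 was reached by 5, 1, 0, 1 and 0 members, and by 2482, 2278, 2812, 1081 and 968 of the 21203 genes tested. DESeq2 called 0 members at each stage. The smallest adjusted p was that of Pfkp at baseline, which read 40.8, 41.3, 36.7 and 42.1 CPM in immature and 48.7, 58, 55.6 and 55.2 CPM in mature mice (immature minus mature -0.44 ± 0.14, adjusted p = 0.153). The groups did not overlap, and in a fit of only these libraries Pfkp passed (-0.45, adjusted p = 0.0461).

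The isoform ratios of the ages were not tested, and the following ranges were chosen after the values were seen. At baseline, Pfkm over Pfkl plus Pfkp was 37.8 to 45.5 in immature and 16.4 to 31.3 in mature mice, Eno3 over Eno1 was 35.6 to 46 and 11.2 to 32.9, and Ldha over Ldhb was 2.41 to 2.56 and 1.89 to 2.18. At 0dpr, Ldha over Ldhb was 3.01 to 3.65 and 1.46 to 2.26. In each of these the immature libraries lay above all mature libraries. In all other combinations of ratio and stage, the libraries of the ages overlapped. The muscle list's average also differed at baseline, at 11.4 to 11.8 (mean 11.6) in immature and 10.5 to 11.5 (mean 11) in mature mice. Its part in these ratios was not tested.

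Whether the change over time differed between ages was tested for the 4 successive steps. The interaction with age passed in 0 of 10 members by edgeR and by DESeq2, against 0.0141%, 0.0613%, 0% and 0% of all genes. By edgeR, 2, 1, 0 and 0 members had an unadjusted p under 0.05, as had 1712, 2382, 1714 and 901 of all genes tested. The largest interaction at 0 to 2dpr was that of Ldhb, with log2 fold changes of -2.77 in immature and -3.78 in mature mice, a difference of 1.00 ± 0.36 (adjusted p = 0.305).

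The other genes of the pathway were a list of 25 with transporters and regulators. From 0 to 2dpr, 4 of them were higher and 13 lower in the immature group, as were 5 and 13 in the mature group, where 21.8% and 22.2%, and 22.7% and 24.9%, of all genes were higher and lower, with median log2 fold changes of -0.86 and -0.99. Pgam1, the ubiquitous phosphoglycerate mutase, rose by 2.21 ± 0.18 at both ages (adjusted p = 5.89e-12 and 3.03e-12), and Pgam2, its muscle counterpart, changed by -2.73 ± 0.27 and -3.31 ± 0.28 (adjusted p = 3.67e-10 and 5.24e-12). Slc2a1, the glucose transporter GLUT1 of most cells, rose by 1.28 ± 0.23 and 1.82 ± 0.23 (adjusted p = 2.31e-05 and 4.74e-08). Slc2a4, the insulin-responsive transporter GLUT4 of muscle and fat, changed by -2.86 ± 0.25 and -3.90 ± 0.26 (adjusted p = 2.17e-11 and 2.83e-14). Slc2a3, the transporter GLUT3, was at -0.59 ± 0.34 (adjusted p = 0.155) in immature mice and fell in mature mice (-0.97 ± 0.33, adjusted p = 0.015). Pgk1 and Pkm, enzymes of the lower pathway, were at -0.18 and 0.14, and at -0.09 and -0.04, and did not pass. Other shared steps were lower at 2dpr without overlap of libraries. Gapdh went from 2896 ± 877 to 1400 ± 160 CPM in immature and from 2779 ± 590 to 1357 ± 135 CPM in mature mice. Aldoa went from 9092 ± 2289 to 2261 ± 288 CPM and from 10226 ± 2854 to 2097 ± 475 CPM.

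At 14dpr against baseline, 4 of the 25 passed as higher and 13 as lower at the immature age, and 5 and 11 at the mature age, against 16.4% and 15.1%, and 17.1% and 16.4%, of all genes (medians -1.06 and -0.54). From baseline to 0dpr, the counts were 6 higher and 1 lower, and 10 higher and 1 lower, against 5.98% and 4.66%, and 11.9% and 10.6%, of all genes (medians 0.51 and 0.57). Of 12 genes known to be induced by low oxygen, 4 and 6 rose and 0 fell at that step (against the same shares of all genes), with medians of 0.41 and 0.84, beside the rise of Ldha. From 0 to 2dpr, the counts were 2 higher and 6 lower, and 3 higher and 4 lower, against the shares given for that step above (medians -0.49 and -0.04).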

How the data were processed

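RNAseq was made from 39 libraries in 10 groups, and members and lists were chosen with earlier results of these data known. Per the labels, the authors used STAR 2.5.2a, GRCm38 and a stranded TruSeq kit, and deposited whole-number counts per gene and a table of CPM scaled by TMM, a normalized signal per gene made by the authors from those counts. The deposited CPM equalled those of edgeR from the deposited counts. Libraries were sequenced on separate runs, which the labels do not assign to samples. Counts of the authors' 21203 filtered genes were fitted in edgeR 4.0.16 (R 4.3.3; glmQLFit, 1 coefficient per group, all libraries), adjusted by Benjamini-Hochberg over all genes. Rows naming no gene (1 filtered, 24 unfiltered; 0.00111% of counts) were left out. Standard errors are the log2 fold change divided by the root of F, an approximation. Log2 CPM used a prior count of 2, and levels between genes were divided by union exon length (GENCODE M21). Shares and ranks between genes therefore depend on these lengths. Ratios were tested by exact two-sided permutation. Named genes are all members, pathway genes from a fixed list, and for each member the closest genes by correlation. No libraries of a group agreed within sampling noise (at least 6.39 times its size). The labels do not say that replicates are separate animals, so p-values measure the spread between these samples. Total counts were 6057708 to 21536887 per library. Alternatives were RLE factors, total counts, filterByExpr, no filter, DESeq2 1.42.0, a fit of only the libraries compared, a replicate block, a muscle covariate and leaving out each library. The script was tested on simulated data. Same-numbered libraries deviated together only between immature and mature mice at 0dpr (mean correlation 0.224, from 0.178 to 0.296), where 0 members passed with the block also. RefSeq promoters were found for all 10 members. Of the 3 closest genes of each member, some are named, and one item is not reported here.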

Additional observations from a re-analysis of the deposited data

Results flagged for a closer look

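In 126 group-wise checks (90 of a member's CPM and 36 of an isoform ratio, in groups of 4 libraries), 6 libraries stood apart from the rest of their group by Dixon's criterion, which chance gives in about 1 in 20 checks. In immature mice, Eno3 at 2dpr was 363 CPM in replicate 2, against 506 to 532 in the others. Gpi1 at 0dpr was 444 CPM in replicate 1, against 578 to 598. Ldha at 14dpr was 501 CPM in replicate 2, against 549 to 556. Pfkl at 2dpr was 175 CPM in replicate 3, against 127 to 132. In mature mice, Pfkl at 0dpr was 187 CPM in replicate 1, against 41.4 to 56.1, and the rise of Pfkl from baseline rested on that library. The ratio of Hk3 to Hk1 plus Hk2 at 14dpr was 0.962 in replicate 4, against 0.486 to 0.567.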

How the results depend on the processing

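With the muscle score as a covariate, the number of members passing went from 3 to 1 (immature) and 8 to 0 (mature) for 0dpr against baseline, 9 to 1 and 8 to 2 for 2dpr against 0dpr, 2 to 4 for immature 5dpr against 2dpr, 1 to 0 and 0 to 1 for 14dpr against 5dpr, and 8 to 2 and 8 to 5 for 14dpr against baseline. From 0 to 2dpr it turned the sign of Hk2 (0.44 immature, 0.69 mature), Ldha (0.41, 0.85) and immature Eno3 (0.044), and for 14dpr against baseline that of immature Ldha (0.0098), none of which passed. The shares of all genes passing with this covariate are not given, so these member counts have no background beside them. In a fit of only the libraries compared, 0 passed for immature 0dpr against baseline, 4 (immature) and 0 (mature) for 5dpr against 2dpr, 5 and 2 for 14dpr against 5dpr, and 1 between ages at baseline. DESeq2 called 5 for immature 0dpr against baseline and 3 for immature 14dpr against 5dpr, where total counts as the only scaling also gave 3. Under that scaling the share of higher calls among all genes went from 56.2% to 24.4% and 52.7% to 19.8% (0dpr against baseline), 49.5% to 64.6% and 47.6% to 61.7% (2dpr against 0dpr), and 61.3% to 45.9% (ages at baseline). The ratio of Hk3 to Hk1 alone at 14dpr in immature mice changed by -0.064. Beside what the construction of each alternative shows, the cause was not tested.

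Apart from the ages at 0dpr, libraries shared only a replicate number. With the replicate block, 1 member passed for immature 0dpr against baseline and 0 for immature 14dpr against 5dpr, and the other 17 counts stayed within 1.5 times. Sign permutation within pairs cannot go below 0.125 with 4 pairs. Leaving out 1 library gave 1 to 3 members (immature 0dpr against baseline), 1 to 3 (immature) and 2 to 6 (mature) for 5dpr against 2dpr, and 0 to 1 (immature 14dpr against 5dpr). The shares of all genes passing with the block or with 1 library left out are not given here. For ratios, 3 against 4 libraries cannot pass the threshold.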

Other observations

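Slow muscle fibre genes, a list of 6 that includes Myh7 and Tnni1, were also measured beside the 20 muscle genes. Their summed CPM was 660 to 1070 at baseline and 153 to 221 at 14dpr in immature mice, and 372 to 816 and 161 to 417 in mature mice. At 2dpr it was 327 to 550 and 218 to 477.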
